A study of Mus musculus with 10 samples.

Results

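Calcium cycling and excitation-contraction coupling were examined through 10 genes, which 20 probes of the array measured, out of 56605 probes and 22907 genes that could be named. A probe was taken as a member when the RefSeq accession that the array file gives for it belongs to Cacna1c, Cacnb2, Ryr2, Trdn, Jph2, Casq2, Casq1, Atp2a2, Pln or Slc8a1. The arrays came from hearts of C57BL/6N mice, an inbred laboratory strain, with 4 arrays of right ventricle (RV), 3 of left ventricle (LV) and 3 of interventricular septum. The labels name no other genotype and no treatment, and the sources used here give no age for these mice. RNA came from pieces of whole tissue perfused with saline, so each array holds all cell types of its region, and in such bulk samples fewer cells of a type and less RNA per cell cannot be told apart. The question was whether the transcripts that move calcium in the heartbeat differed between the 3 regions.

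In each heartbeat, an action potential opens the L-type calcium channel in the transverse tubule, and the calcium that enters opens the ryanodine receptor in the facing membrane of the sarcoplasmic reticulum. The stored calcium then flows into the cytosol and the myofilaments shorten. Relaxation follows when the sarcoplasmic reticulum pump takes calcium back up and the sodium-calcium exchanger carries the rest out of the cell.

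Across the 10 genes, 1 passed the test between RV and LV, and the same gene passed between RV and septum. It was Slc8a1, the gene of the cardiac sodium-calcium exchanger, and it was lower in the RV in both comparisons. Casq1, the skeletal muscle isoform of the calcium store protein calsequestrin, had its 3 highest levels in the 3 septum arrays, without passing the test. The promoter windows of Slc8a1 and of both calsequestrin genes are shown because Slc8a1 was the gene called and the calsequestrins are isoforms whose levels differed in pattern. Each is the 250 bases before a transcription start that RefSeq annotates on GRCm38.p6, on the strand of the gene, and capitals mark a match on either strand to AGATAA, the motif of GATA factors.

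Slc8a1, chr17:81738388-81738637, minus strand: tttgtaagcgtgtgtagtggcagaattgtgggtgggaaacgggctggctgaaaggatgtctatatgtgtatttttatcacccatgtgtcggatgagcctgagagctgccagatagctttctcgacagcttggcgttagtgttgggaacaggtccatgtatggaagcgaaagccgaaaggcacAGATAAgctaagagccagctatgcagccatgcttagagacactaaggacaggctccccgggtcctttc

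Casq2, chr3:102086165-102086414, plus strand: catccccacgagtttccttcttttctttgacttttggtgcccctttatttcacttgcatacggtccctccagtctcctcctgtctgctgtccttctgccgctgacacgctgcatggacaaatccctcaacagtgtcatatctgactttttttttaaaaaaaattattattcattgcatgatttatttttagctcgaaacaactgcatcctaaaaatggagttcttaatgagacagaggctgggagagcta

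Casq1, chr1:172219896-172220145, minus strand: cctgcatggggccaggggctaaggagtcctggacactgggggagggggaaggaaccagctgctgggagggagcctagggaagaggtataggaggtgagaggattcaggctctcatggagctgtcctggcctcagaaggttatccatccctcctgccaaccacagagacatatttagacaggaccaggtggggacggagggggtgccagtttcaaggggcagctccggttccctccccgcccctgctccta

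The Slc8a1 window held 1 match to AGATAA, and the windows of both calsequestrin genes held 0. Of 32851 such windows of mouse genes, 9.99% held this motif. Among the windows not shown, that of Pln also held 1, and those of Ryr2, Jph2, Cacna1c and Cacnb2 held 0. No window was available for Trdn or Atp2a2. A match is only a run of letters, and the arrays measured no binding.

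Levels are given on the log2 scale relative to the 75th percentile of the array, which is 0, and differences are differences of group means on that scale. Each array carried 59305 spots that were not controls, of which 53.7% to 64.0% were well above background. All 20 probes of the 10 genes were well above background on 10 of 10 arrays. The test was limma's moderated test over the 10 arrays, with Benjamini-Hochberg adjustment over the 30234 probes kept because all arrays of 1 or more regions showed them well above background. The arrays lay on 2 slides, with replicates 1 and 2 of each region on slide 1 and the others on slide 2, and values with the slide as a block and within each slide are given beside the results. Nothing in the labels ties arrays of different regions to 1 animal.

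Between RV and LV, 3.86% of all probes were called at an adjusted p below 0.05, 1.55% as lower in RV. Of the 10 genes 1 was called, as lower. All 10 genes had a negative difference, with a median of -0.23, beside 57% of all probes with a negative difference and a median of -0.04 over all probes. The RV arrays lay below all LV arrays without overlap in 3 genes, Casq2, Slc8a1 and Jph2, beside 11.1% of all probes. Between RV and septum, 2.08% of all probes were called, 0.873% as lower in RV, and 1 of the 10 genes was called. All 10 differences were again negative, with a median of -0.17, beside 57.3% of all probes and a median of -0.03. Casq1, Casq2 and Slc8a1 did not overlap there, beside 7.82% of all probes. In the test of the 3 regions together, 2.78% of all probes and 1 of the 10 genes, Slc8a1, were called (adjusted p = 0.0156). The comparisons share the RV arrays, so the second is not independent of the first.

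**Figure D1:**
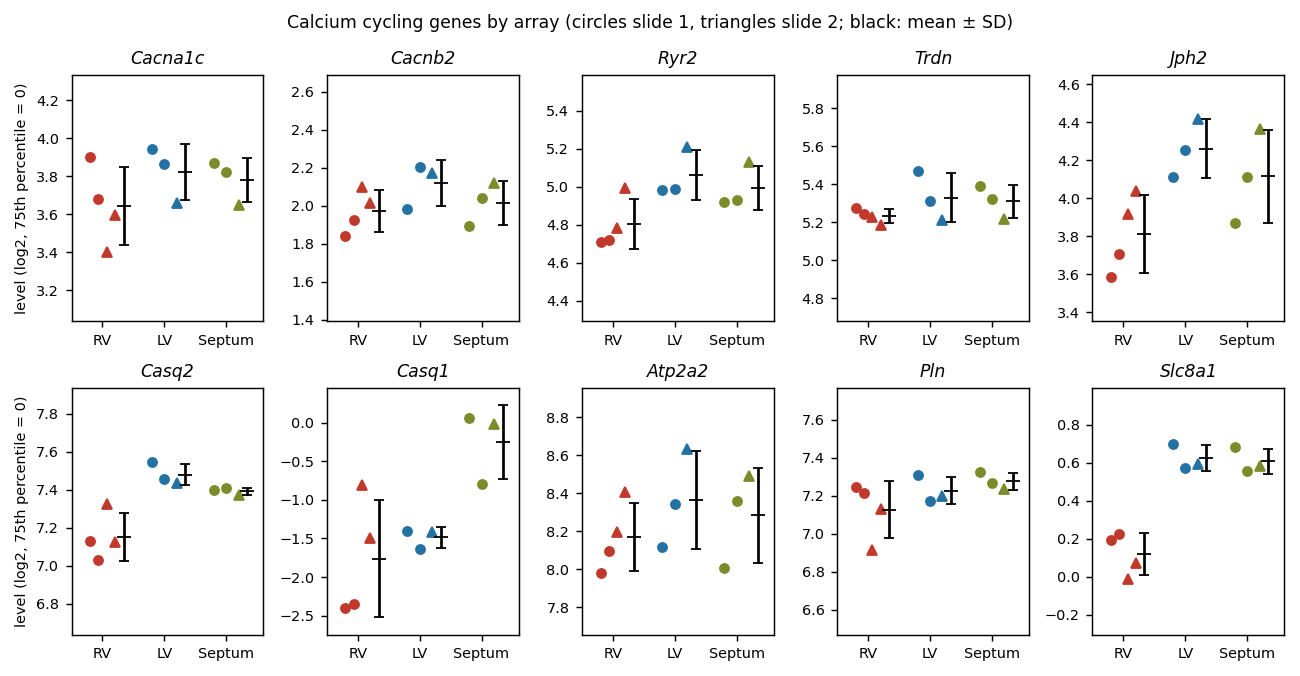
Level of the brightest probe of each of the 10 genes on every array (log2, array 75th percentile at 0; each panel has its own range), by region, with circles for slide 1, triangles for slide 2 and a black bar for the mean ± SD of 4 RV, 3 LV or 3 septum arrays. The RV arrays of Slc8a1 lie below all others, and the septum arrays of Casq1 lie above all others.

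The L-type channel carries the calcium that starts each contraction. Cacna1c, which encodes its pore, was at 3.90, 3.68, 3.40 and 3.59 in the RV arrays, at 3.94, 3.86 and 3.66 in the LV arrays and at 3.87, 3.82 and 3.65 in the septum arrays. The 3 groups overlapped. The difference between RV and LV was -0.18 (95% interval -0.46 to 0.10), and that between RV and septum was -0.14 (95% interval -0.42 to 0.14). A dimmer Cacna1c probe, A_55_P2014154, gave -0.44 between RV and LV in limma's test (adjusted p = 0.0594), and the other dimmer probes gave -0.30 and 0.01. The slide block called A_55_P2014154 and A_51_P376996 against LV, at -0.46 (adjusted p = 0.012) and -0.32 (adjusted p = 0.0378), as they were with the replicate block, at -0.50 (adjusted p = 0.0159) and -0.35 (adjusted p = 0.0433). For Cacnb2, the gene of a cytoplasmic subunit that brings the pore to the membrane, the RV arrays ranged from 1.84 to 2.10, the LV arrays from 1.98 to 2.21 and the septum arrays from 1.89 to 2.12. Its differences were -0.15 (95% interval -0.36 to 0.07) against LV and -0.05 (95% interval -0.26 to 0.17) against septum. Its second probe had the opposite sign against septum, at 0.13, and was not called.

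The release unit comprises the ryanodine receptor and the proteins that anchor it to the store and to the transverse tubule. Ryr2, the cardiac release channel, was at 4.71, 4.72, 4.78 and 4.99 in the RV arrays, at 4.98, 4.99 and 5.21 in the LV arrays and at 4.92, 4.93 and 5.13 in the septum arrays. RV array 4 reached the range of the other regions, and the other 3 RV arrays lay below it. The difference was -0.26 against LV (SE 0.10, adjusted p = 0.199 in limma's test) and -0.19 against septum (SE 0.10, adjusted p = 0.451). With the slide as a block, Ryr2 was called against LV, at -0.29 (adjusted p = 0.0135), and not against septum, at -0.22 (adjusted p = 0.0511). With the replicate number as a block, both were called, at -0.32 (adjusted p = 0.0198) and -0.26 (adjusted p = 0.0479). RV array 4 has no partner of its number, so it adds nothing to that fit. Within slide 1 and slide 2 the difference from LV was -0.27 and -0.32, and neither was called. The second Ryr2 probe gave -0.29 against LV (adjusted p = 0.259), and it was called there with the slide block, at -0.34 (adjusted p = 0.0303), and with the replicate block, at -0.38 (adjusted p = 0.0282).

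Jph2 encodes junctophilin 2, which holds the transverse tubule to the sarcoplasmic reticulum. Its levels were 3.58, 3.71, 3.92 and 4.04 in the RV arrays, 4.11, 4.26 and 4.42 in the LV arrays and 3.87, 4.11 and 4.36 in the septum arrays. The RV arrays lay below all LV arrays, while the lowest septum array fell within the RV range. The difference was -0.45 against LV (SE 0.15, adjusted p = 0.127 in limma's test) and -0.30 against septum (SE 0.15, adjusted p = 0.399). With the slide as a block, Jph2 was called in both comparisons, at -0.50 (adjusted p = 0.00539) and -0.36 (adjusted p = 0.0276). It was also called in both with the replicate block, at -0.53 (adjusted p = 0.00677) and -0.38 (adjusted p = 0.0191). Within slide 1 and slide 2 the difference from LV was -0.54 and -0.44, and neither was called. For Trdn, the gene of triadin, which links the receptor to calsequestrin, the RV arrays ranged from 5.19 to 5.28, the LV arrays from 5.21 to 5.47 and the septum arrays from 5.22 to 5.39. The groups overlapped, with differences of -0.10 (95% interval -0.28 to 0.09) against LV and -0.08 (95% interval -0.26 to 0.11) against septum.

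The calsequestrins bind calcium inside the store. Casq2, the cardiac isoform, was at 7.13, 7.03, 7.33 and 7.12 in the RV arrays, at 7.54, 7.46 and 7.44 in the LV arrays and at 7.40, 7.41 and 7.37 in the septum arrays. All RV arrays lay below all arrays of the other regions, and RV array 3 was the nearest to them. The difference was -0.33 against LV (SE 0.08, adjusted p = 0.0597 in limma's test) and -0.24 against septum (SE 0.08, adjusted p = 0.219). A second, dimmer Casq2 probe gave -0.50 (adjusted p = 0.0786) and -0.51 (adjusted p = 0.105). That probe was called in both comparisons with the slide block, at -0.46 (adjusted p = 0.0147) and -0.47 (adjusted p = 0.0195), and against LV with the replicate block, at -0.46 (adjusted p = 0.0417). Casq2 was called against LV with the slide as a block, at -0.33 (adjusted p = 0.0186), with the replicate block, at -0.32 (adjusted p = 0.0498), and without RV array 3, at -0.39 (adjusted p = 0.028). Within slide 1 and slide 2 the difference of the brightest probe from LV was -0.42 and -0.21, and neither was called. The dimmer probe gave -0.60 within slide 1, just inside the threshold (adjusted p = 0.04997 in limma's test), and -0.27 within slide 2, not called.

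Casq1 had another pattern. Its levels were -2.40, -2.35, -0.81 and -1.49 in the RV arrays, -1.41, -1.64 and -1.41 in the LV arrays and 0.07, -0.80 and -0.02 in the septum arrays. The septum arrays lay above all arrays of both ventricles, by a narrow margin for septum array 2 over RV array 3, and the RV arrays of slide 1 lay lowest. The difference between RV and septum was -1.51, or 2.86-fold lower in RV (SE 0.37, adjusted p = 0.085 in limma's test). The difference between septum and LV was 1.24, or 2.36-fold higher in septum (SE 0.40, unadjusted p = 0.0123, adjusted p = 1). With the slide as a block the difference between RV and septum was called, at -1.62 (adjusted p = 0.0141), as it was with the replicate block, at -1.61 (adjusted p = 0.0442), and within slide 1, at -2.01 (adjusted p = 0.0454). It was -1.13 and not called within slide 2. Without RV array 3 it was -1.83 and called (adjusted p = 0.0211). RV and LV differed by -0.28 (95% interval -1.12 to 0.56), with -0.85 within slide 1 and 0.26 within slide 2.

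Markers of other cell types are given beside the septum values of Casq1. Of 10 conduction system markers 8 were tested, and 2 of them, Cntn2 and Cpne5, were called as higher in septum than in RV. The mean level of these 8 markers was -0.73 to -0.09 in the septum arrays, -1.03 to -0.76 in the RV arrays and -1.25 to -1.06 in the LV arrays, and Nrcam and Isl1 were well above background on 0 arrays. Of 10 skeletal muscle markers 6 were tested, with mean levels of -0.15 to -0.05 in septum, -0.74 to -0.40 in RV and -0.57 to -0.26 in LV, and 2 of them, Pvalb and Myot, were called as higher in septum than in RV. The other 4 had the opposite sign, so the median difference of the 6 was 0.11 for RV minus septum, while these 2 genes carried the list mean. The fast myosin gene Myh1 was well above background on 0 arrays, Myh2 and Myh4 on 1 each and Actn3 on 3. Of 10 atrial markers 9 were tested, with mean levels of 2.17 to 4.09 in septum, at most 2.63 in RV and at most 2.30 in LV. The atrial mean of septum array 3, at 2.17, lay below those of LV arrays 1 and 3 and RV arrays 1 and 3. The highest atrial and conduction means were both on septum array 1, and without that array the differences of Casq1 were -1.36 for RV minus septum and 1.08 for septum minus LV. The part of these markers in the Casq1 result was not tested.

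**Figure D2:**
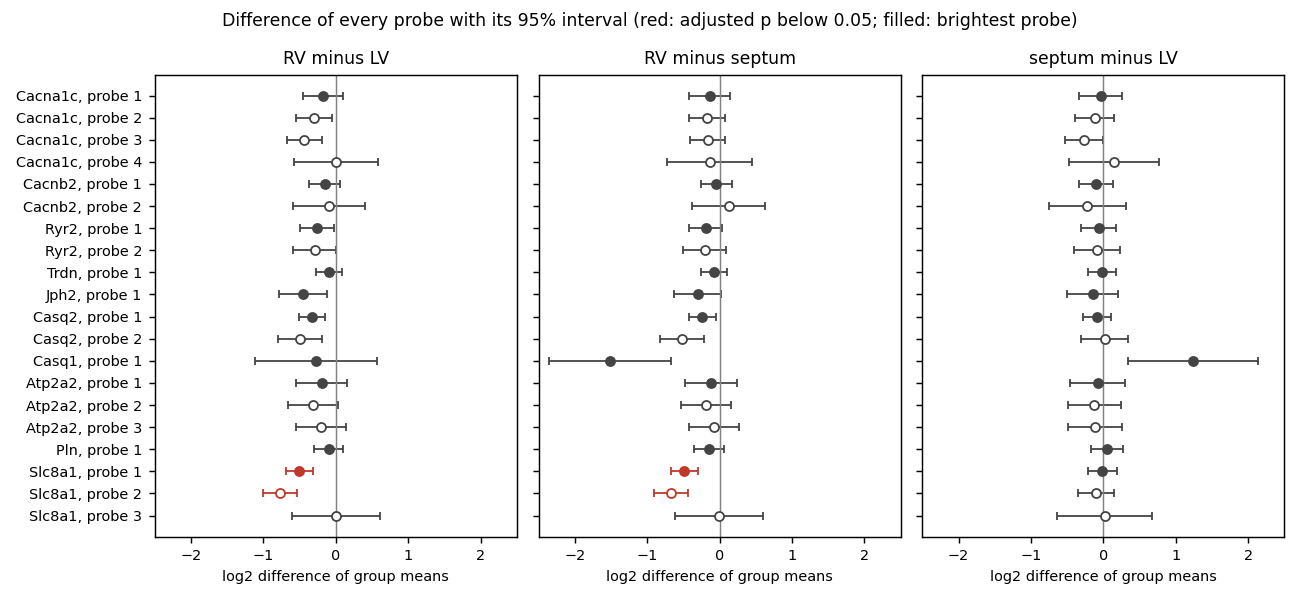
Log2 difference of group means with its 95% interval for each of the 20 probes, in the 3 comparisons between regions, with filled points for the brightest probe of a gene and red for an adjusted p below 0.05. 2 of the 3 Slc8a1 probes are red in both comparisons with RV, and none is red between septum and LV.

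Uptake into the store is the work of the pump SERCA2, encoded by Atp2a2, and of phospholamban, encoded by Pln, which holds the pump back. Atp2a2 was at 7.98, 8.10, 8.20 and 8.41 in the RV arrays, at 8.12, 8.34 and 8.63 in the LV arrays and at 8.01, 8.36 and 8.49 in the septum arrays. The groups overlapped, and the difference was -0.20 (95% interval -0.55 to 0.16) against LV and -0.12 (95% interval -0.47 to 0.24) against septum. Within the 3 same-numbered pairs the RV array was lower than the LV array in every pair, with differences of -0.14, -0.25 and -0.44. The replicate block gave -0.27 (adjusted p = 0.0588 in limma's test) and -0.19 (adjusted p = 0.169), neither called. The 2 other Atp2a2 probes gave -0.32 and -0.20 against LV, not called. With the replicate block both were called against LV, A_52_P168097 at -0.42 (adjusted p = 0.0144) and A_52_P569001 at -0.29 (adjusted p = 0.0276), and A_52_P168097 also against septum, at -0.29 (adjusted p = 0.0466). Pln ranged from 6.91 to 7.25 in RV, from 7.17 to 7.31 in LV and from 7.24 to 7.32 in septum. Its differences were -0.10 (95% interval -0.31 to 0.11) and -0.15 (95% interval -0.36 to 0.06). The log2 ratio of Pln to Atp2a2 within an array, which no scaling of the array can move, differed by 0.10 between RV and LV (exact permutation test, two-sided p = 0.743).

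Slc8a1 encodes the exchanger that removes calcium across the cell membrane. Its brightest probe, A_55_P2080758, was at 0.19, 0.22, -0.01 and 0.07 in the RV arrays, at 0.70, 0.58 and 0.60 in the LV arrays and at 0.68, 0.56 and 0.58 in the septum arrays. Every RV array lay below every array of the other regions. The difference was -0.51 against LV, or 1.42-fold lower in RV (SE 0.08, adjusted p = 0.0127 in limma's test), and -0.49 against septum, or 1.40-fold lower (SE 0.08, adjusted p = 0.022). LV and septum differed by -0.02 (95% interval -0.21 to 0.18).

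A second Slc8a1 probe, A_55_P2292435, was at -2.52, -2.62, -2.58 and -2.51 in the RV arrays, at -1.59, -1.84 and -1.91 in the LV arrays and at -1.69, -2.04 and -1.91 in the septum arrays. Its RV arrays were again below all others, with differences of -0.78 (adjusted p = 0.00582 in limma's test) and -0.67 (adjusted p = 0.0162). The third probe, which carries the accession of a noncoding transcript of the gene, gave 0.01 (95% interval -0.60 to 0.61) and -0.01 (95% interval -0.62 to 0.60). The probes of Slc8a1 therefore disagreed, and the mean over them differed by -0.43 (adjusted p = 0.051) and -0.39 (adjusted p = 0.0995). With the slide as a block the brightest probe gave -0.49 (adjusted p = 0.00277 in limma's test) and -0.47 (adjusted p = 0.00423). Within slide 1 it gave -0.43 and -0.41, and within slide 2 it gave -0.57 and -0.55, none of them called. Without LV array 1 the difference from LV was -0.47 and not called (adjusted p = 0.0611), and the difference from septum lost its call without any 1 of the septum arrays or RV array 4, at -0.45 to -0.51.

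**Figure D3:**
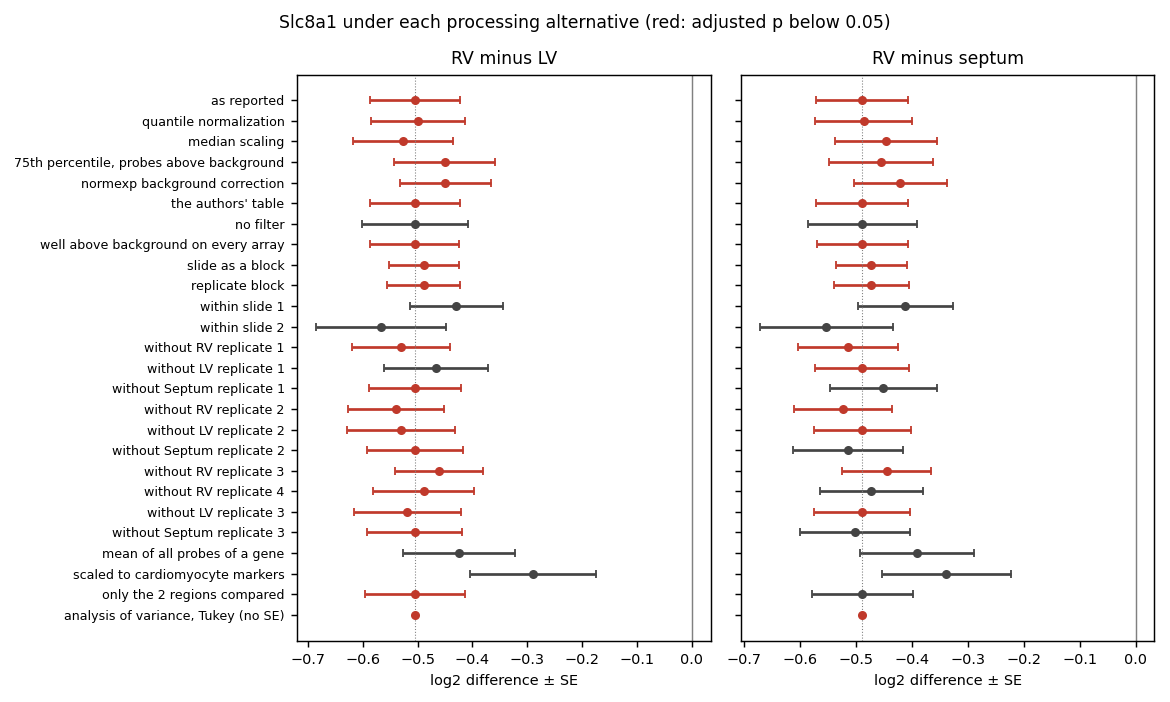
Log2 difference ± SE of the brightest Slc8a1 probe between RV and LV and between RV and septum under each way of processing the arrays, with red for an adjusted p below 0.05. Every value is below 0, and the smallest, -0.29 and -0.34, came from scaling to cardiomyocyte markers.

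Some cardiomyocyte markers were also lower in RV. Of 18 such markers, which include contractile genes such as Mybpc3, Tnnc1 and Csrp3, all 18 were tested, and 17 had a negative difference between RV and LV, with a median of -0.22. Between RV and septum 13 were negative and 5 positive, with a median of -0.12. The 3 genes named here were called as lower in both comparisons, and the other 15 in neither. The mean level of the 18 markers was 7.45 to 7.54 in RV, 7.66 to 7.79 in LV and 7.54 to 7.76 in septum. Other lists differed in direction. Of 11 adipocyte markers tested, 7 were called as higher in RV than in LV, with mean levels of 1.19 to 1.58 in RV, -1.69 to -0.73 in LV and -0.42 to 0.65 in septum. All 11 fibroblast markers tested had a positive difference between RV and LV, and 3 were called, with mean levels of 3.09 to 3.80 in RV, 2.68 to 2.90 in LV and 2.99 to 3.15 in septum. Of 10 mesothelium markers tested, all 10 had a positive difference between RV and LV and 1 was called. Their mean levels were -0.29 to 1.09 in RV, -1.45 to -0.68 in LV and -3.44 to -1.40 in septum. Between RV and septum, 9 of these 10 were called as higher in RV, with a median difference of 3.28. In that comparison 3 of 11 adipocyte markers and 1 of 11 fibroblast markers were called as higher in RV. All 10 macrophage markers were positive between RV and LV with 0 called, and 8 of 9 blood markers were negative with 0 called. Endothelium markers had 5 positive and 5 negative differences with 1 called as higher, and smooth muscle and pericyte markers had 4 positive and 6 negative with 0 called. The part of these lists in the results for the 10 genes was not tested.

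When each array was scaled to the mean of the cardiomyocyte markers, a choice made after seeing the data, the median over all probes moved to 0.18 between RV and LV and to 0.12 between RV and septum. Slc8a1 was then at -0.29 (SE 0.12, adjusted p = 0.133 in limma's test) against LV and at -0.34 (adjusted p = 0.153) against septum, and 0 of the 10 genes were called. Casq2 was at -0.11, Jph2 at -0.24 and Ryr2 at -0.04 against LV. Atp2a2, Pln, Trdn, Cacna1c and Cacnb2 changed sign against LV, to 0.02, 0.11, 0.12, 0.04 and 0.07. The log2 ratio of Slc8a1 to Atp2a2 within an array differed by -0.31 between RV and LV (exact permutation test, two-sided p = 0.229) and by -0.37 between RV and septum (exact permutation test, two-sided p = 0.286), and the groups overlapped. Within same-numbered pairs this ratio was lower in RV in 3 of 3 pairs, with differences of -0.37, -0.11 and -0.17 against LV and of -0.46, -0.07 and -0.30 against septum, where the smallest p that 3 pairs allow is 0.25.

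Ratios between members were compared for 6 pairs in 3 comparisons, 18 tests in all, with two-sided exact permutation tests. The smallest p that 4 against 3 arrays allow is 0.0571 and that for 3 against 3 is 0.1, so no ratio could reach 0.05. The ratio of Casq1 to Casq2 was 1.33 log2 units higher in septum than in LV (exact p = 0.1, adjusted p = 0.96), without overlap. It was 1.27 higher in septum than in RV (exact p = 0.114, adjusted p = 0.96), where the groups overlapped. The other ratios overlapped between the groups in every comparison. Within same-numbered pairs, the ratio of Trdn to Ryr2 was higher in RV than in LV and than in septum in 3 of 3 pairs, that of Pln to Atp2a2 was higher in RV than in LV and in septum than in LV in 3 of 3, and that of Cacnb2 to Cacna1c was lower in septum than in LV in 3 of 3. The ratio of Casq1 to Casq2 was higher in septum in 3 of 3 pairs against each ventricle. The smallest p that 3 pairs allow is 0.25. These ratios share genes and arrays, and their agreement within pairs was not tested.

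With the slide as a block, 4 of the 10 genes were called between RV and LV, beside 17.6% of all probes, and 3 between RV and septum, beside 8.74%. With the replicate block, 4 were called in each, beside 14.9% and 7.12% of all probes. Within slide 1, 0 and 1 were called in these comparisons, beside 2.72% and 1.58% of all probes, and within slide 2, 0 and 0, beside 1.09% and 0.566%. Between septum and LV, 0 of the 10 genes and 0 of the 30234 probes were called by limma, beside 2.85% of all probes at an unadjusted p below 0.05. Of the 10 genes 1, Casq1, had an unadjusted p below 0.05 there, as higher in septum, beside 1.99% of all probes in that direction. A negative difference was found for 8 of the 10 genes, beside 53.9% of all probes. Casq1 did not overlap as higher in septum, beside 3.55% of all probes, and Casq2 did not overlap as lower in septum, beside 3.45%.

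The 3 genes whose levels were most like those of Slc8a1 over the 10 arrays, after centring on the slide means and among 13629 genes, were Hoxb6, Apol10b and Ipo5, with Pearson r of 0.995, 0.993 and 0.992. The points share the arrays and the scaling of each array, and the likeness is a description.

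Beyond these 10 genes, 105 other genes of calcium handling were listed by role, of which 102 were on the array and 95 were tested. Between RV and LV, 9 of the 95 were called, 7 as lower in RV and 2 as higher, beside 1.55% and 2.31% of all probes. The median difference over the 95 was -0.13, and 66 were negative. Between RV and septum, 4 were called, 3 as lower and 1 as higher, beside 0.873% and 1.2% of all probes, with a median of -0.12 and 70 negative. With the slide as a block these counts were 38 and 20, and with the replicate block 31 and 19, beside the shares of all probes given above. Leaving out 1 array lowered the 9 to between 1 and 3, except septum array 1, which left 6, and septum array 3, which left 9. It lowered the 4 to between 0 and 2, except LV array 3, which left 3. Between septum and LV, 0 were called, and 4 of the 95 had an unadjusted p below 0.05, beside 2.85% of all probes.

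Among genes of release and storage, 3 of 17 tested were called as lower in RV than in LV. Asph, whose transcripts include junctin, a partner of triadin at the ryanodine receptor, was at 3.37, 3.43, 3.63 and 3.33 in the RV arrays, at 4.24, 4.02 and 3.97 in the LV arrays and at 4.05, 4.02 and 3.96 in the septum arrays. All RV arrays lay below the others, with differences of -0.63 (adjusted p = 0.00994 in limma's test) and -0.57 (adjusted p = 0.024). A second Asph probe gave -0.30 (adjusted p = 0.0688) and -0.39 (adjusted p = 0.0421). Srl, the gene of sarcalumenin, a calcium-binding protein of the store, fell by 0.41 against LV (adjusted p = 0.0419), and Jsrp1, a junctional protein of the store membrane, fell by 0.40 (adjusted p = 0.0383) and, against septum, by 0.42 (adjusted p = 0.0427).

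Among 9 genes of dyad and T-tubule structure, 8 had a negative difference between RV and LV, with a median of -0.26, and 2 were called. Cmya5, which encodes the dyad protein myospryn, fell by 0.43 against LV (adjusted p = 0.0341 in limma's test) and by 0.43 against septum (adjusted p = 0.0485). Speg, the gene of a striated muscle kinase, fell by 0.50 against LV (adjusted p = 0.0463), while its 2 other probes gave -0.02 and -0.17 and were not called. Of 21 kinase, phosphatase and anchor genes, 18 were negative and 1 was called, the anchor Akap6, which fell by 0.31 (adjusted p = 0.0346). Its 2 other probes gave -0.17 and -0.23 and were not called. Saraf, which restrains store-operated entry, fell by 0.35 against LV (adjusted p = 0.0327), and its second probe gave -0.40 (adjusted p = 0.0165) and, against septum, -0.33 (adjusted p = 0.0432).

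Both genes called as higher in RV than in LV came from other roles. Mcub, an inhibitory subunit of the mitochondrial uniporter, was at 0.21, 0.08, 0.17 and 0.05 in the RV arrays and at -0.35, -0.38 and -0.62 in the LV arrays. Its groups did not overlap, and the difference was 0.58 (adjusted p = 0.0182 in limma's test), with 0.62 at a second probe that was not called. Cacng6, a calcium channel gamma subunit gene, was 0.43 higher than in LV (adjusted p = 0.0313) and 0.52 higher than in septum (adjusted p = 0.0226). Of the 4 genes of sarcoplasmic uptake tested, 0 were called, and between RV and LV 0 had an unadjusted p below 0.05. With the replicate block 1 of them was called as lower in RV, Atp2a1, the pump of fast skeletal muscle, at -0.36 against LV (adjusted p = 0.0146) and -0.30 against septum (adjusted p = 0.0327), and it is named after its values were seen.

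The 4 of 95 genes with an unadjusted p below 0.05 between septum and LV were all higher in septum. Of all probes 1.99% had such a p in that direction. The 4 genes are named after their values were seen. They were Cacna1g, the gene of a T-type calcium channel pore, Cacna2d2, the gene of a channel auxiliary subunit, Atp2b2, the gene of a plasma membrane calcium pump, and Ppp1r1b, the gene of a phosphatase inhibitor. Cacna1g was at 0.26, 0.14 and 0.49 in the septum arrays and at -0.51, -0.43 and -0.29 in the LV arrays. Its septum arrays lay above all LV arrays, with a difference of 0.71 (adjusted p = 0.221 in limma's test). That difference was called with the slide as a block (adjusted p = 0.0383). It was not called with the replicate block, which called 0 of all probes between septum and LV. Dimmer Cacna1g probes, A_51_P466910 and A_52_P611610, gave 0.90 and 0.58 without overlap, not called (adjusted p = 0.449 for each). Between RV and septum, Cacna1g was called with the slide block, at -0.52 (adjusted p = 0.0022), and with the replicate block, at -0.54 (adjusted p = 0.0118). Cacna2d2 was at 0.41, -0.89 and -0.78 in septum and at -1.55, -1.62 and -1.82 in LV, a difference of 1.24 that was not called. The conduction and atrial lists given beside Casq1 had their highest means on septum array 1, where Cacna2d2 had its highest septum level. Cacna1g had its highest septum level on array 3, where the atrial mean was the lowest of the septum arrays. The part of these markers was not tested.

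**Figure D4:**
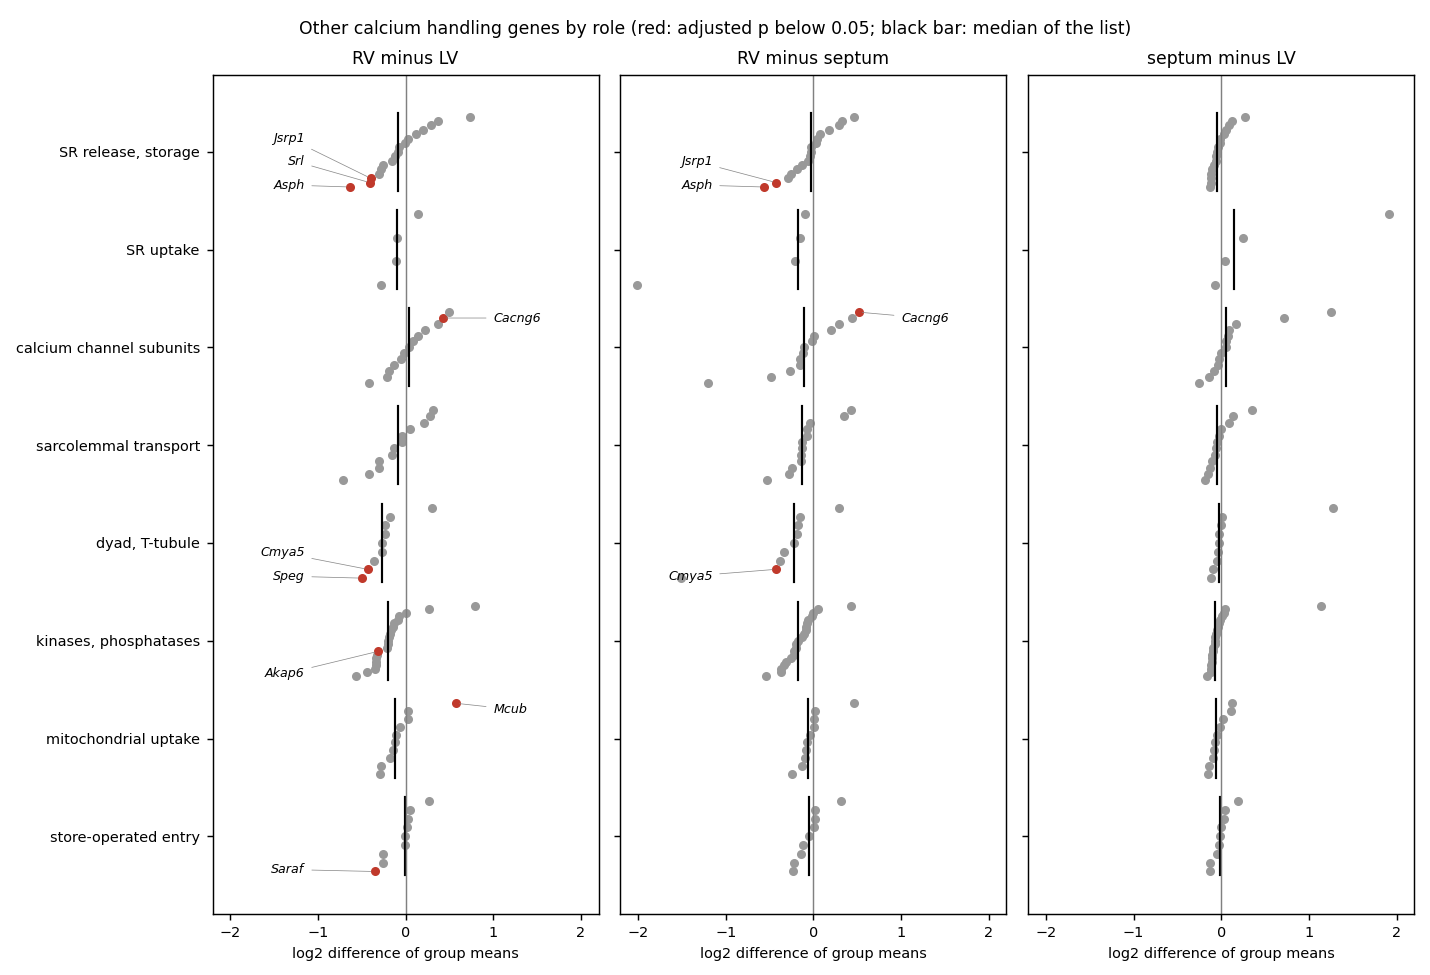
Log2 differences of the 95 other calcium handling genes in the 3 comparisons, grouped by role, with a black bar at the median of each list and red for an adjusted p below 0.05. The called genes are named, 9 between RV and LV, 4 between RV and septum and 0 between septum and LV.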

How the data were processed

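RNA from RV, LV and septum tissue was hybridised to 1-colour Agilent SurePrint G3 mouse arrays, 1 sample per array and 10 arrays in all. The deposited scanner files hold spot intensity from Agilent Feature Extraction 11.5.1.1, already corrected for background within each array. The authors' table holds log2 values whose 75th percentile is about 0 on every array, made in GeneSpring, and it was used as an alternative. For 56567 or more probes of each array, its values lay within 0.05 of those computed here for 100% of probes.

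Control spots and outlier spots were left out, spots of a probe were averaged on the log2 scale, and every array was scaled by subtracting its own 75th percentile. A probe was named through its RefSeq accession; 32989 of 56605 probes had a symbol. The array design gives mm9 coordinates, and those printed come from RefSeq's GRCm38.p6. The brightest probe of a gene was reported, with every other probe of the 10 genes beside it. Other calcium handling genes were named where their brightest probe was called. The 10 genes and all lists were chosen with earlier results of these data known.

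Group means were compared with limma 3.58.1 in R 4.3.3, without covariates, and called at an adjusted p below 0.05. Ratios were compared with exact permutation tests in scipy 1.17.1. The analysis was tested on simulated data. Alternatives changed the scaling, the background correction, the filter, the block, the arrays and the choice of probe, and included the methods' analysis of variance. Normexp (offset 50) used the median signal, since the mean signal column is not in the files used here. The number of arrays limits the precision. The design text speaks of different individuals without tying arrays to animals, so p-values measure the spread between these samples.

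Replicate numbers come from the labels. Same-numbered arrays of different regions deviated together, with correlations of 0.36 to 0.64 in 9 pairs. Other pairs on the same slide gave 0.09 to 0.58 and pairs across slides -0.56 to -0.21. On slide 1 the lowest same-numbered pair was at 0.36 and the highest other pair at 0.31. On slide 2, RV array 4 gave 0.57 with LV array 3 and 0.58 with septum array 3. RV array 3, which shares their number, gave 0.43 and 0.44. The check therefore does not settle whether the numbers pair the arrays, and number and slide cannot be fully told apart. The reported comparisons and the permutation tests of ratios leave any pairing out, as in the study's methods. The fit with the replicate number as a block is given as an alternative.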

Additional observations from a re-analysis of the deposited data

Results flagged for a closer look

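In 3 probes, RV array 4 stood far from the other 3 RV arrays, judged by its gap to the nearest array over the range of the group (Dixon's ratio, above its 95% critical value for 4 arrays). The second Ryr2 probe, A_52_P440709, was at 4.94 on RV array 4 and at 4.56 to 4.62 on the others, a ratio of 0.842. A Cacna1c probe, A_51_P376996, was at 1.08 against 0.86 to 0.88, a ratio of 0.902. The Cmya5 probe was at 5.56 against 5.31 to 5.33, a ratio of 0.925. Chance gives such a ratio in about 1 of 20 groups, and 29 probes were checked.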

How the results depend on the processing

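Under the alternatives to the processing, the differences of the 10 genes gave 687 values with the same direction and side of the threshold. Another 31 had the opposite sign, 16 gained a call and 16 lost one. Slc8a1 was the only gene with a call to lose, so all 16 losses were of Slc8a1. The count of genes called between RV and LV, 1 as reported, was 2 with normexp correction, 4 with either the slide or the replicate block, 0 with no filter, within slide 1, within slide 2 and with cardiomyocyte scaling, and 2 with the methods' analysis of variance and Tukey test unadjusted. Between RV and septum, 1 as reported, it was 3 with the slide block, 4 with the replicate block, 0 with no filter, within slide 2, with the mean of all probes, with cardiomyocyte scaling and with only the 2 regions compared, and 3 with the unadjusted Tukey test. For the test of the 3 regions together, 1 as reported (Slc8a1), it was 5 with the slide block, 3 with the replicate block and with the unadjusted analysis of variance, and 0 with no filter, within either slide, with the mean of all probes and with cardiomyocyte scaling. After Benjamini-Hochberg adjustment the analysis of variance called 1. Leaving out each array in turn gave 0 to 2 genes for RV against LV, for RV against septum and for the 3 regions together. Slc8a1 lost its call against LV without LV array 1 (-0.47, adjusted p = 0.0611), and against septum without septum array 1 (-0.45), 2 (-0.51) or 3 (-0.50) or RV array 4 (-0.47). Casq2 gained a call against LV with normexp correction, with the mean of its probes and without RV array 3, and Casq1 against septum without RV array 3. At the brightest probes of the 10 genes, the replicate block changed the calls of Ryr2, Jph2, Casq2 and Casq1 and no other; at dimmer probes it changed calls of Atp2a2, Cacna1c, Casq2 and Ryr2. All are given beside their results.

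Other calcium handling genes called between RV and LV, 9 as reported, numbered 5 with quantile normalization, 3 with median scaling, 0 with no filter, 38 with the slide block, 31 with the replicate block, 4 within slide 1, 0 within slide 2, 2 with only the 2 regions and 26 with the unadjusted Tukey test. Between RV and septum, 4 as reported, they numbered 2 with median scaling and with cardiomyocyte scaling, 1 with no filter, within slide 1 and with only the 2 regions, 20 with the slide block, 19 with the replicate block, 0 within slide 2, 18 with the unadjusted Tukey test and 8 with the adjusted one. Between septum and LV, 0 as reported, they numbered 1 with the slide block, 2 with the unadjusted Tukey test and 1 with the adjusted one. Leaving out each array gave 1 to 9 and 0 to 3.

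With cardiomyocyte scaling, signs turned for Atp2a2 (0.0199 against LV, 0.0347 against septum), Pln (0.115 and 0.000845), Trdn (0.12 and 0.0727), Cacna1c (0.0387 and 0.0134) and Cacnb2 (0.0659 and 0.104), and between septum and LV for Slc8a1 (0.0485), Trdn (0.0468) and Cacna1c (0.0253). Between septum and LV, Pln turned to -0.0161 with median scaling, Slc8a1 to 0.00464 and Trdn to 0.00293 with the 75th percentile of probes above background, Trdn to 0.0187 and Cacna1c to 0.001005 with quantile normalization, and Trdn to 0.00871 within slide 2. Casq1 turned to 0.26 between RV and LV within slide 2, and Cacnb2 to 0.0409 against septum with the mean of its probes. Leaving out each array turned signs between septum and LV, with ranges of -0.203 to 0.0592 for Atp2a2, -0.122 to 0.0251 for Cacna1c, -0.135 to 0.0076 for Ryr2, -0.0548 to 0.0219 for Slc8a1 and -0.0783 to 0.0514 for Trdn, and of -0.109 to 0.00547 for Cacnb2 against septum. None of these values was called. The ratio of Casq2 to Ryr2 between RV and LV moved from -0.07 to 0.11 within slide 2. Of all probes called between RV and LV, 59.7% were higher in RV, 75.9% with the 75th percentile of probes above background and 95.5% with cardiomyocyte scaling; between RV and septum 58% were higher, 73% with median scaling and 88.3% with cardiomyocyte scaling. The cause of these changes was not tested.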
